A study of Mus musculus with 4 samples.

Results

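The genes described here are *Mapt*, which encodes tau, and 8 genes of proteins that bind or build microtubules (*Map1a*, *Map1b*, *Map2*, *Map4*, *Map6*, *Stmn1*, *Tubb3* and *Tubb2b*). They were taken by gene symbol from the 56691 genes of the deposited table, and all 9 passed the filter on low counts, which left 17188 genes. The set was put together with the difference between ATO-treated and untreated sarcomas in view, so the values of these 9 genes in that contrast are given as a description, without a test.

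RNA-seq was performed on 4 sarcomas from heterozygous W/+ mice, 2 from mice given arsenic trioxide (ATO 1 and ATO 2) and 2 from control mice (PBS 1 and PBS 2). All 4 mice carried 1 mutant *Trp53* allele introduced in the germline by CRISPR/Cas9, which the labels name by its human residue as p53R282W/+. The treated mice drank ATO in their water from young adulthood until death, and the control mice carry the label PBS, although the study describes them as untreated. The age of each mouse and the type of each sarcoma are not given in the labels, and the same adipogenic culture protocol is attached to all 4 samples, treated and control alike. Each sample is bulk tumor tissue, in which fewer cells of a type and less RNA per cell cannot be told apart.

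The total counts were 18134000 in ATO 1, 15259695 in ATO 2, 17465090 in PBS 1 and 17971675 in PBS 2. Mitochondrially encoded genes took 14.7% of the counts in ATO 2, against 2.59% in ATO 1, 1.98% in PBS 1 and 1.99% in PBS 2. Levels are given as FPKM, the count scaled to exonic length and to the total count of the library, which allows genes of different length to be compared. FPKM is not corrected for very abundant genes in a single library. The fold changes therefore come from edgeR on counts after TMM normalization, which rescales each library to the bulk of its genes. In that fit 0 of 17188 genes passed a Benjamini-Hochberg adjusted p of 0.05, 1463 had an unadjusted p under 0.05, and DESeq2, which was fitted without that filter on 30859 genes, called 754 (2.44%). With 2 sarcomas a group and a biological coefficient of variation of 62.5%, a gene that missed the threshold is not shown to be alike in the groups.

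The sarcomas differed widely in the tissues whose markers they held. The gene said to lead a list of markers has its highest mean FPKM over the 4 sarcomas and need not be highest in each. Mesenchymal markers, led by *Col1a1*, were abundant in all 4 sarcomas, with a summed FPKM over 8 genes of 4095 in ATO 1, 1327 in ATO 2, 5390 in PBS 1 and 1752 in PBS 2. The summed FPKM of 10 skeletal muscle markers, led by *Acta1*, was 15769 in ATO 1, 1102 in ATO 2, 7.75 in PBS 1 and 136 in PBS 2. That of 6 adipocyte markers, led by *Fabp4*, was 233 in ATO 1, 1384 in ATO 2, 12.7 in PBS 1 and 67.0 in PBS 2. Muscle and adipocyte markers were thus high in both ATO sarcomas, muscle mostly in ATO 1 and fat mostly in ATO 2. Endothelial markers, led by *Cdh5*, reached a summed FPKM of 946 in PBS 2 and between 77.9 and 157 in the others. Osteoblast markers, led by *Ibsp*, reached 488 in ATO 1 and at most 13.0 elsewhere. Leukocyte markers, led by *Cd68*, lay between 152 and 350, and epithelial markers, led by *Krt18*, between 1.05 and 20.2.

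Microtubules are hollow polymers of alpha- and beta-tubulin that grow and shrink at their ends. Structural microtubule-associated proteins bind along the polymer and stabilize it, whereas stathmin binds free tubulin and favors disassembly. Tau, MAP2, MAP1A, MAP1B, MAP6 and the beta-tubulins TUBB3 and TUBB2B are best known from neurons, where they organize axons and dendrites, while MAP4 is the broadly expressed member of the tau family. TUBB3 and stathmin are also widely studied in tumors, where stathmin accompanies cell proliferation.

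*Mapt* stood alone among the 9 genes in being higher in both ATO sarcomas than in both PBS sarcomas. Its FPKM was 4.5 in ATO 1, 3.51 in ATO 2, 0.11 in PBS 1 and 0.18 in PBS 2. The lowest ATO value was 19.5 times the highest PBS value, and the groups did not overlap. These levels rest on 614 and 403 counts in the ATO sarcomas. In PBS 1 the count was 14 (95% exact Poisson interval 7.65 to 23.5) and in PBS 2 it was 24 (15.4 to 35.7), so that *Mapt* was detected in every sarcoma. Intervals of this kind cover counting error only. On the TMM-normalized scale the CPM was 33.0 ± 1.02 in ATO and 0.973 ± 0.334 in PBS (mean ± SD, n = 2 each). The fitted log2 fold change was 5.07 (SE 0.57), a 33.7-fold difference, which ranked 296th from the top of the 17188 genes. In limma it was 4.07 on log2(FPKM + 0.1) and 2.12 on log2(FPKM + 1), so its size depends on how low values are treated. Of all these genes, 12.8% lay above in both ATO sarcomas in FPKM, 19.7% in TMM-normalized CPM and 12.8% on both scales.

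**Figure D1:**
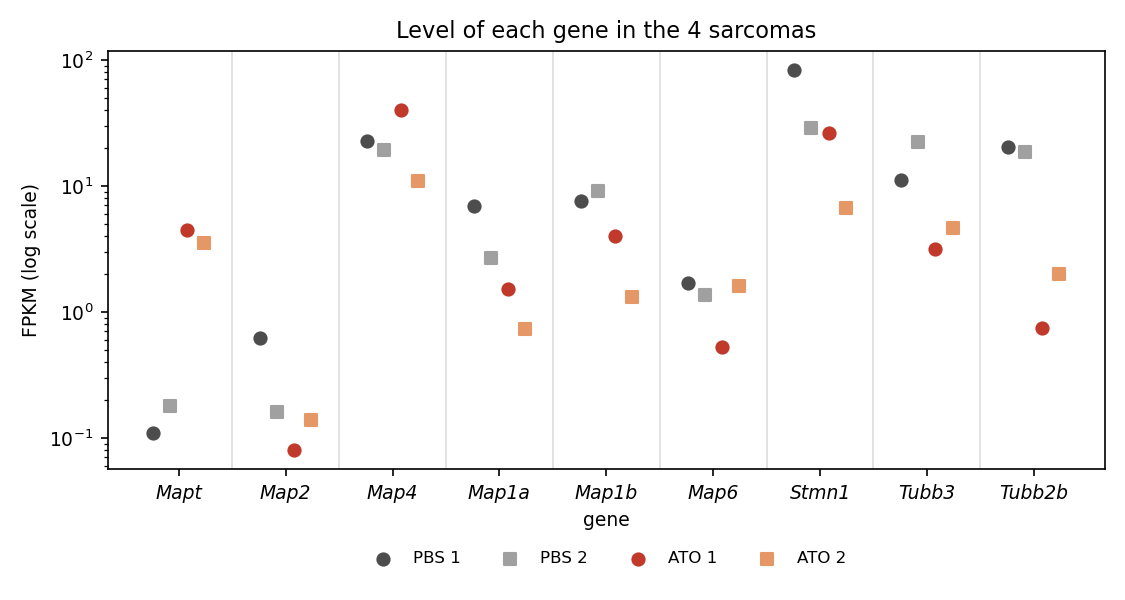
FPKM (log axis) of the 9 genes in each of the 4 sarcomas, with 1 point per sarcoma, PBS in greys and ATO in red and orange. *Mapt* is the gene with both ATO points (4.5 and 3.51) above both PBS points (0.11 and 0.18), while *Tubb2b* shows the widest gap in the other direction.

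The level of *Mapt* was nearly the same in the ATO sarcomas, with an FPKM ratio of ATO 1 to ATO 2 of 1.28, or 1.04 on the TMM-normalized scale. Over the same pair of sarcomas the summed skeletal muscle markers had a ratio of 14.3 and the summed adipocyte markers a ratio of 0.168. In the PBS sarcomas *Mapt* was 1.64 times higher in PBS 2 than in PBS 1, where the muscle markers were 17.6 times and the adipocyte markers 5.26 times higher. All 10 muscle markers and all 6 adipocyte markers lay above both PBS sarcomas in both ATO sarcomas on both scales, as did *Mapt* and 12.8% of all genes tested, and their part in the level of *Mapt* was not tested.

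*Rbfox3*, which encodes the neuronal nuclear protein NeuN, had an FPKM of at most 0.25, in ATO 1, and *Snap25*, a synaptic fusion protein, of at most 0.08 in any sarcoma. *Elavl4*, a neuronal RNA-binding protein, had 0 counts in ATO 1, ATO 2 and PBS 1 and 5 counts in PBS 2, which allows up to 3 counts, or 0.165 to 0.197 CPM, where none was seen. The summed FPKM of the 15 neuron markers was 1.47 in ATO 1, 6.7 in ATO 2, 17.2 in PBS 1 and 191 in PBS 2. It was lower in both ATO sarcomas, and 6 of the 15 genes lay below on both scales and 0 above, beside 20.2% and 12.8% of all genes tested. Only 7 of the 15 passed the filter, and some of the 6 rest on few counts, such as *Snap25* with 1, 1, 9 and 3. The synaptic vesicle gene *Syp* was highest in ATO 2, at 2.26 FPKM, and *Syn1*, another, was at 0.32 in ATO 1, 2.82 in ATO 2, 2.92 in PBS 1 and 0.57 in PBS 2. The neurofilament gene *Nefl*, which led the 15 through PBS 2, had 8726 counts in PBS 2 and 1, 0 and 3 counts in ATO 1, ATO 2 and PBS 1. Schwann cell markers, led by *S100b*, had a summed FPKM of 9.83 in ATO 1, 36.8 in ATO 2, 4.39 in PBS 1 and 14.4 in PBS 2, with overlapping groups. Of the 8 Schwann cell markers, a list shortened after the values were seen, 3 lay above on both scales (12.8% of all genes tested), and their part in the level of *Mapt* was not tested.

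The closest relatives of *Mapt* did not share its pattern. *Map2*, the dendritic member of the family, had an FPKM of 0.08 in ATO 1, 0.14 in ATO 2, 0.62 in PBS 1 and 0.16 in PBS 2. It was the least expressed of the 9 genes on average, and only PBS 1 stood apart. Its fitted log2 fold change was -1.51 (SE 0.97), -0.23 without PBS 1, -2.21 without ATO 2, -2.18 without PBS 2 and -0.31 in limma on log2(FPKM + 1), and the groups overlapped on the TMM-normalized scale.

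*Map4*, the member found in most tissues, had an FPKM of 39.82 in ATO 1, 10.84 in ATO 2, 22.78 in PBS 1 and 19.14 in PBS 2. The PBS sarcomas lay close together and between the ATO sarcomas, so the groups overlapped. The fitted log2 fold change was 0.47 (SE 0.68), and its direction rested on ATO 1, without which it was -0.55, and it was 1.06 without ATO 2.

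As a share of the summed FPKM of *Mapt*, *Map2* and *Map4*, which does not depend on scaling between sarcomas, *Mapt* made up 10.1% in ATO 1, 24.2% in ATO 2, 0.468% in PBS 1 and 0.924% in PBS 2. On counts, which are not scaled to length, the *Mapt* share was 5.31%, 13.7%, 0.225% and 0.454%, and the difference between the groups was 9.16 percentage points in place of 16.5. *Map4* supplied most of the family's transcripts in every sarcoma, between 74.8% and 98.3%. The *Mapt* share was larger in ATO 2, where *Map4* was lowest, while *Mapt* itself was at a similar level in both ATO sarcomas.

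*Map1a* and *Map1b*, which encode the large MAP1 proteins of adult and growing neurons respectively, were both lower in the ATO sarcomas. *Map1a* had an FPKM of 1.52 in ATO 1, 0.73 in ATO 2, 6.96 in PBS 1 and 2.68 in PBS 2. Its fitted log2 fold change was -1.87 (SE 0.65), and -1.01 without PBS 1, the highest sarcoma. On the opposite strand *Map1a* overlaps *Ppip5k1*, an inositol phosphate kinase with 804, 1323, 259 and 189 counts in ATO 1, ATO 2, PBS 1 and PBS 2, and with no strand setting reported, reads of the overlap are uncertain for both.

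*Map1b* had an FPKM of 4 in ATO 1, 1.32 in ATO 2, 7.52 in PBS 1 and 9.11 in PBS 2. The control sarcomas were close to each other, and ATO 2 was the lowest. The fitted log2 fold change was -1.44 (SE 0.56), -2.25 without ATO 1 and -0.92 without ATO 2. The third gene of the family, *Map1s*, was at 4.23 and 3.83 in ATO and 7.59 and 8.43 in PBS, and the summed FPKM of the family was 9.75 and 5.88 in ATO and 22.1 and 20.2 in PBS.

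*Map6*, which encodes the protein that makes microtubules resistant to cold, had an FPKM of 0.53 in ATO 1, 1.6 in ATO 2, 1.71 in PBS 1 and 1.37 in PBS 2. In FPKM, ATO 1 was low and ATO 2 lay between the PBS sarcomas. On the TMM-normalized scale ATO 2 was the highest, at 17.9 CPM against 14.4 in PBS 1 and 11.4 in PBS 2. *Map6* overlapped between the groups on both scales. Its fitted log2 fold change was -0.18 (SE 0.77), the smallest of the 9, 0.46 without ATO 1 and -1.41 without ATO 2.

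*Stmn1*, which encodes stathmin, had the highest mean FPKM of the set. It was at 26.34 in ATO 1, 6.68 in ATO 2, 83.29 in PBS 1 and 28.92 in PBS 2. The ATO sarcomas were lower, but ATO 1 and PBS 2 lay close together and changed order on the TMM-normalized scale, at 50.4 and 50.3 CPM. The fitted log2 fold change was -1.58 (SE 0.82), -0.61 without PBS 1, -0.96 without ATO 2 and -2.67 without ATO 1.

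Of 10 proliferation markers 9 also had a negative fitted log2 fold change, with a median of -0.91 over the list, and 4 lay below on both scales, beside 50.8% and 20.2% of all genes tested. Their part in the level of *Stmn1* was not tested. The summed FPKM of the list was 176 in ATO 1, 14.65 in ATO 2, 178 in PBS 1 and 114 in PBS 2, so ATO 2 was lowest in both. *Ube2c*, which helps degrade mitotic proteins, led this list with a mean FPKM of 18.97, close to 18.88 for *Mki67*. *Mki67*, which encodes Ki67, had an FPKM of 45.37 in ATO 1, 1.96 in ATO 2, 16.33 in PBS 1 and 11.86 in PBS 2, and was the 1 marker of the list with a positive fitted log2 fold change, 0.89. Within the stathmin family *Stmn1* supplied 97.8%, 88.0%, 99.1% and 77.3% of the summed FPKM in ATO 1, ATO 2, PBS 1 and PBS 2. Most of the remainder in ATO 2 and PBS 2 was *Stmn2*, a stathmin of neurons.

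Both beta-tubulins of the set were lower in the ATO sarcomas. *Tubb2b* had an FPKM of 0.75 in ATO 1, 2 in ATO 2, 20.32 in PBS 1 and 18.6 in PBS 2, and the lowest PBS value was 9.3 times the highest ATO value. The counts were 31 and 70 in ATO and 814 and 767 in PBS. Its fitted log2 fold change of -3.48 (SE 0.74), an 11.2-fold lower level, ranked 159th from the bottom of the 17188 genes. It was -4.57 without ATO 2 and -2.88 without ATO 1.

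*Tubb3* had an FPKM of 3.13 in ATO 1, 4.6 in ATO 2, 11.03 in PBS 1 and 22.46 in PBS 2. The groups did not overlap, and PBS 2 was the highest. The fitted log2 fold change was -1.80 (SE 0.61), 3.49-fold lower, and -1.22 without PBS 2. Beta-tubulin genes are close copies of each other, so the assignment of reads among them is uncertain, and *Tubb3* also shares its locus with the annotated readthrough gene *Gm20388*, which the deposited table does not hold.

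The fitted log2 fold change was positive for 2 of the 9 genes and negative for 7, where 49.2% and 50.8% of all genes tested were. In FPKM alone 6 lay below both PBS sarcomas in both ATO sarcomas (29.6% of all genes tested). Of the 9 genes, 4 (*Map1a*, *Map1b*, *Tubb3* and *Tubb2b*) lay below both PBS sarcomas in both ATO sarcomas on both scales, where 20.2% of all genes tested did, and 1 (*Mapt*) lay above. The set was chosen on this contrast, so nothing is read from these counts. The median fitted log2 fold change of the 9 genes was -1.51, or -0.61 without PBS 1, beside -0.016 over all genes tested. The gene order by FPKM also differed, with *Mapt* at rank 3 of the 9 in ATO 1 and 4 in ATO 2 but 9 in PBS 1 and 8 in PBS 2.

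As a sum in FPKM, tubulin transcripts were lower in the ATO sarcomas. The summed FPKM of 8 beta-tubulin genes was 239.84 in ATO 1, 169.98 in ATO 2, 665.06 in PBS 1 and 526.39 in PBS 2, and that of 8 alpha-tubulin genes was 321.98, 183.31, 600.38 and 525.39. The groups did not overlap for either sum, and 29.6% of all genes tested also lay below in FPKM. In the same fit 9 of 10 proliferation markers had a negative log2 fold change (50.8% of all genes tested). Of these 10 markers 4 lay below on both scales (20.2% of all genes tested), and their summed FPKM in ATO 1 lay between the PBS sums. All muscle and adipocyte markers lay above on both scales (12.8% of all genes tested). The part of these markers in the tubulin sums was not tested. With 2 sarcomas against 2, an exact permutation test over samples cannot give a p below 0.333, so none was run. *Tubb5*, the main beta-tubulin of proliferating tissues, was at 95.79 and 66.99 in ATO and 365.02 and 236.25 in PBS.

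The makeup of the beta-tubulin pool also differed. *Tubb2b* supplied 0.313% and 1.18% of beta-tubulin FPKM in ATO 1 and ATO 2, and 3.06% and 3.53% in PBS 1 and PBS 2. The share of *Tubb3* was 1.31% in ATO 1, 2.71% in ATO 2, 1.66% in PBS 1 and 4.27% in PBS 2, so that for *Tubb3* the groups overlapped as a share although not as a level. *Tubb5*, the largest part of the pool, took 39.9% and 39.4% in ATO and 54.9% and 44.9% in PBS. *Tubb4b*, a broadly expressed isotype also used in cilia, took 35.8% and 27.1% in ATO and 12.2% and 14.1% in PBS, while its own FPKM was 85.75 and 46.14 in ATO and 81.33 and 74.43 in PBS.

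**Figure D2:**
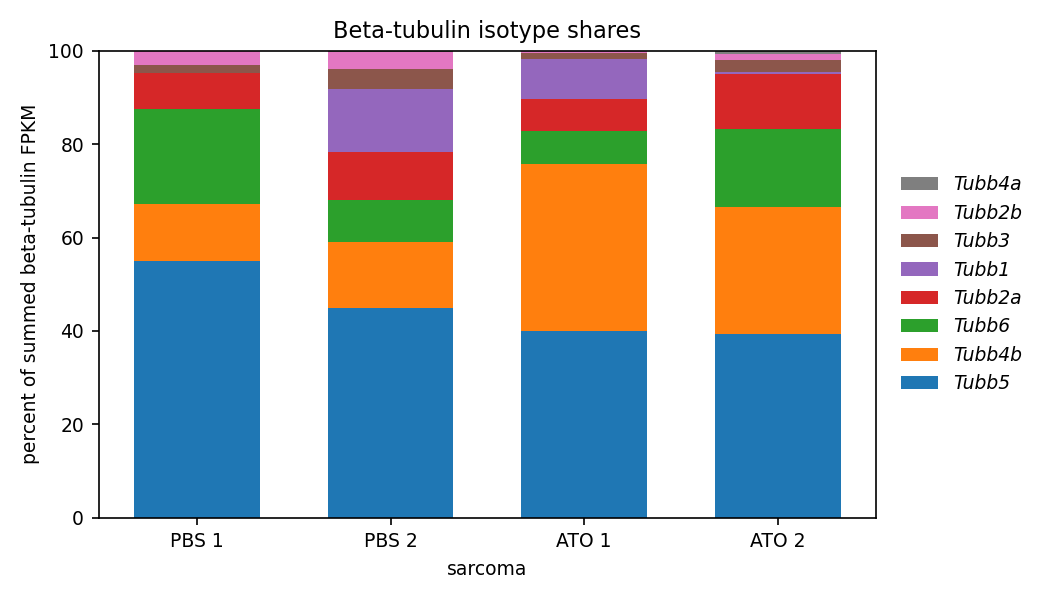
Share of each of the 8 beta-tubulin genes in the summed beta-tubulin FPKM (percent, stacked to 100) in each of the 4 sarcomas. *Tubb4b* takes 35.8% and 27.1% in ATO 1 and ATO 2 against 12.2% and 14.1% in PBS 1 and PBS 2, and *Tubb2b* takes less in both ATO sarcomas.

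The other genes of microtubule biology were taken from 8 lists grouped by function. Of their 139 genes, 126 were tested in the edgeR fit across all genes. With Benjamini-Hochberg adjustment 0 of 126 passed 0.05 in either direction, as for all genes tested (0%), and the smallest edgeR adjusted p was 0.57. At an unadjusted p under 0.05, 3 were higher in ATO (5.44% of all genes tested) and 7 were lower (3.07%). The fitted log2 fold change was positive for 45 of the 126 and negative for 81, beside 49.2% and 50.8% of all genes tested. On both scales 9 of the 139 lay above and 40 below, beside 12.8% and 20.2%. These shares also apply to the counts per list below. The lists were chosen with earlier results known, so nothing is read from these counts. DESeq2 called 4 of 135 listed genes (2.96%, beside 2.44% of all genes it was fitted on), *Tuba8*, *Clip4* and *Camk2a* as higher and *Tuba1a* as lower.

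Among the other tubulins 15 of 18 genes were tested, 3 with a higher and 12 with a lower fitted level, and the median log2 fold change was -0.83. *Tuba3a*, *Tuba3b* and *Tubal3* had 0 counts in every sarcoma. *Tuba8*, an alpha-tubulin of muscle and testis, showed the largest difference, with an FPKM of 34.09 in ATO 1, 12.65 in ATO 2, 0.25 in PBS 1 and 0.66 in PBS 2 (log2 fold change 5.88, SE 0.82, edgeR adjusted p 0.57). *Tuba1a*, the main alpha-tubulin of developing neurons, was at 41.14 and 57.43 in ATO and 286.54 and 259.79 in PBS (log2 fold change -2.16, SE 0.52, edgeR adjusted p 0.57). *Tuba4a* was high in ATO 1 at 101.39, against 13.67 in ATO 2, 2.97 in PBS 1 and 19.76 in PBS 2. *Tuba1a* supplied 12.8% and 31.3% of alpha-tubulin FPKM in ATO and 47.7% and 49.4% in PBS.

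For the other microtubule-associated proteins 22 of 24 genes were tested and the median log2 fold change was -0.10, 10 with a higher and 12 with a lower fitted level. *Map7d1*, which recruits kinesin, was the most abundant at 51.4 and 41.86 FPKM in ATO and 82.41 and 74.26 in PBS. *Eml3* showed overlapping groups, at 22.12 and 10.56 in ATO and 19.23 and 19.41 in PBS. Above a mean FPKM of 1, the largest fitted differences were in *Tppp*, which bundles microtubules, at 1.72 (SE 1.57), and in the doublecortin-like kinase *Dclk1* at -1.60 (SE 0.88), and both overlapped between the groups.

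The plus-end proteins, which track the growing end, were the list with a positive median, 0.31 over 16 genes. *Mapre1*, which encodes EB1, was lower in both ATO sarcomas at 18.45 and 13.37 FPKM against 32.77 and 27.53. *Clip4* was higher in both at 8.17 and 1.17 against 0.25 and 0.46 (log2 fold change 3.89, SE 1.03, edgeR adjusted p 0.57). *Tacc2* was high in ATO 1 alone, at 66.18 FPKM against 2.19 in ATO 2, 2.61 in PBS 1 and 6.42 in PBS 2. Skeletal muscle and osteoblast markers were also highest in ATO 1, and their part in the level of *Tacc2* was not tested.

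Among stathmins and severing or depolymerizing proteins, 2 of 12 tested genes had a higher and 10 a lower fitted level, with a median of -0.35, and *Kif2b* had 0 counts in every sarcoma. *Katna1*, the katanin subunit that cuts microtubules, was at 11.71 and 10.06 FPKM in ATO and 9.78 and 12.9 in PBS. *Kif2a* and *Kif2c*, kinesins that take apart microtubule ends, were lower in both ATO sarcomas, *Kif2a* at 8.41 and 3.94 against 14.46 and 12.61 and *Kif2c* at 2.84 and 0.68 against 10.51 and 4.43. *Stmn2* was high in PBS 2 at 7.94 FPKM and at most 0.75 in the others, as were *Nefl* and *Nefm* of the neuron list.

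Of the tubulin-modifying enzymes 18 of 21 were tested, with 5 higher, 13 lower and a median log2 fold change of -0.48. *Vash1* and *Vash2*, the vasohibins that remove the final tyrosine of alpha-tubulin, were the leading differences. *Vash1* had an FPKM of 2.78 and 4.92 in ATO and 11.81 and 37.49 in PBS (log2 fold change -2.35, SE 0.77, edgeR adjusted p 0.57), and *Vash2* of 2.05 and 1.05 in ATO and 11.18 and 5.51 in PBS (log2 fold change -2.20, SE 0.59, edgeR adjusted p 0.57). Their partner *Svbp* was at 23.92 and 13.72 in ATO and 24.09 and 27.64 in PBS. In TMM-normalized CPM the groups overlapped for *Svbp*, at 25.4 and 17.9 in ATO and 23.6 and 26.7 in PBS. *Sirt2*, which deacetylates alpha-tubulin, was at 20.35 and 20.19 in ATO and 14.18 and 15.83 in PBS.

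The tubulin folding cofactors had a median of -0.13 over 7 genes, between -0.56 for *Tbcc* and 0.34. *Tbca* was the most abundant, at 33.79 and 67.23 FPKM in ATO and 87.05 and 56.4 in PBS, with overlapping groups. *Tbcb* was at 21.99 and 22.54 in ATO and 25.73 and 31.91 in PBS. In TMM-normalized CPM the groups overlapped for *Tbcb*, at 31.6 and 39.7 in ATO and 34.1 and 41.7 in PBS. *Tbcd* had a fitted log2 fold change of -0.37 (SE 0.36).

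Of the kinases and phosphatases that act on tau 17 of 20 were tested, with 6 higher, 11 lower and a median log2 fold change of -0.17. The abundant members were *Ppp2cb*, a catalytic subunit of the phosphatase PP2A, and *Csnk1d*, a casein kinase. *Ppp2cb* was at 46.66 and 43.81 FPKM in ATO and 57.88 and 66.55 in PBS. In TMM-normalized CPM its groups overlapped, at 68.3 and 78.7 against 78.1 and 88.5. *Csnk1d* was at 28.39 and 19.63 FPKM in ATO and 43.2 and 48.5 in PBS. *Camk2a*, a calcium-dependent kinase, was at 9.26 and 1 in ATO and 0.75 and 0.36 in PBS (log2 fold change 3.36, SE 1.13, edgeR adjusted p 0.57), with most of the difference in ATO 1. *Fyn* was high in PBS 2 at 35.52 FPKM and lay from 8.5 to 12.03 elsewhere.

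The cargo motors, kinesins and dynein subunits that carry loads along microtubules, were all tested (19 genes), 7 higher and 12 lower, with a median log2 fold change of -0.20. *Kif1c* had the highest mean level over the 4 sarcomas, at 60.7 and 38.31 FPKM in ATO and 34.23 and 45.2 in PBS. The light chain *Dynll2* was at 27.21 and 45.99 against 28.88 and 26.99. Both overlapped between the groups in FPKM but lay above in TMM-normalized CPM, as did 19.7% of all genes tested. On that scale *Kif1c* was at 440 and 341 against 229 and 298, and *Dynll2* at 74.2 and 153.8 against 72.6 and 66.9. *Kif1b* had a log2 fold change of 1.05 (SE 0.53). *Dync1i1*, a neuronal dynein subunit, reached 5.19 FPKM in PBS 2 and at most 0.54 in the others.

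**Figure D3:**
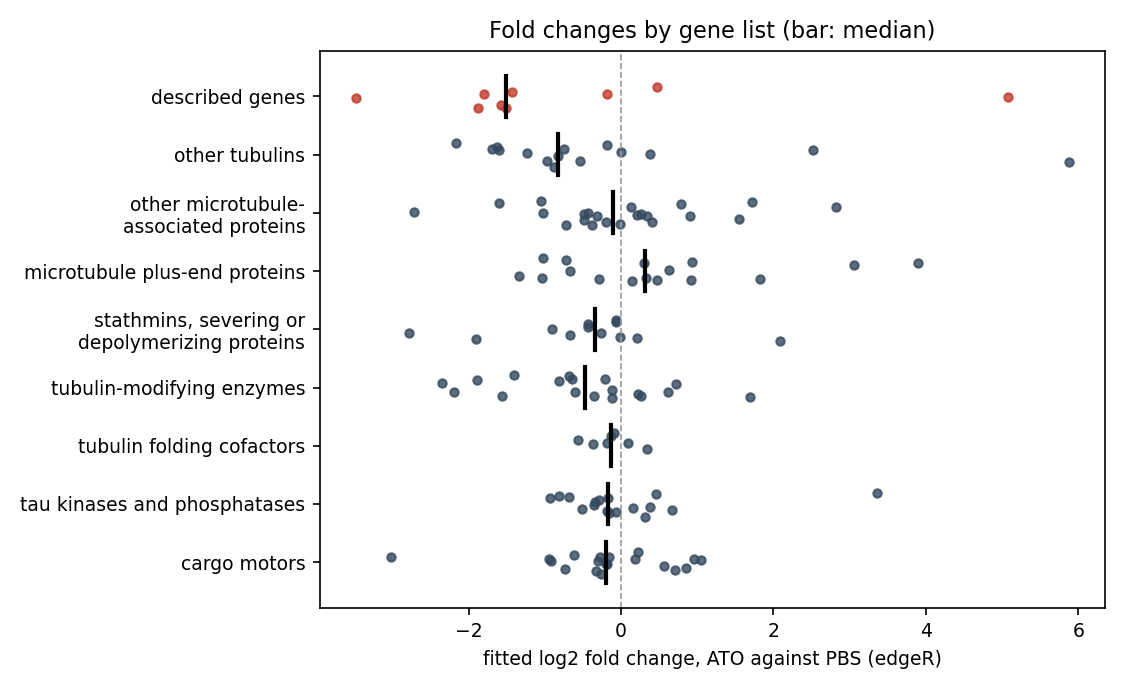
Fitted log2 fold change (ATO against PBS, edgeR) of each tested gene, by list, with 1 point per gene and a black bar at the median of each list. The 9 described genes (red) span -3.48 for *Tubb2b* to 5.07 for *Mapt*, and *Tuba8* among the other tubulins lies at 5.88.

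The genes whose profile over the 4 sarcomas was most like that of *Mapt* were sought by the Euclidean distance between centred log2(TMM-normalized CPM + 1) values, among 13873 other genes above a mean FPKM of 1. The nearest were *Fbp2* (distance 0.307), *Slc25a34* (0.47), *Car14* (0.483), *Lpin1* (0.661) and *Ces2g* (0.704), where a flat profile lay at 4.13. *Fbp2*, for example, had an FPKM of 14.9 in ATO 1, 9.01 in ATO 2, 0.04 in PBS 1 and 0.38 in PBS 2, and *Lpin1* had 33.96, 32, 1.97 and 1.48. On log2(FPKM + 1) the nearest were *Mlycd* (0.183), *Rxrg* (0.201), *Deptor* (0.361), *Popdc2* (0.369) and *Nol3* (0.405), where a flat profile lay at 2.13, so that 0 of 5 genes were shared between the scales. With 4 sarcomas these distances describe the samples and carry no test.

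*Mapt* (ENSMUSG00000018411) lies on chromosome 11 of GRCm38 from 104231390 to 104332090, on the plus strand, by the GENCODE M21 annotation. The other genes lie on chromosome 2 (*Map1a*, 121289600 to 121310832), 13 (*Map1b*, 99421446 to 99516540, and *Tubb2b*, 34126748 to 34130466), 1 (*Map2*, 66175273 to 66442583), 9 (*Map4*, 109931460 to 110083955), 7 (*Map6*, 99267447 to 99337137), 4 (*Stmn1*, 134468320 to 134473843) and 8 (*Tubb3*, 123411424 to 123422015). All 9 are protein-coding, and only *Map1b* and *Tubb2b* are on the minus strand. The antisense gene annotated across *Mapt*, *Gm11659*, had 0 counts in every sarcoma.

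RefSeq promoter sequences of GRCm38.p6 were at hand for 5 of the 9 genes, *Map1a*, *Map1b*, *Map2*, *Map4* and *Tubb3*, and not for *Mapt*, *Map6*, *Stmn1* and *Tubb2b*. Those of *Map1a*, *Map1b* and *Tubb3* are shown because these genes lay lower in both ATO sarcomas together. Each is given 5′ to 3′ on the strand of its gene and stops before the start of the gene in both RefSeq and GENCODE. Capitals mark the GC box, GGGCGG, sought on both strands, where neighbouring matches may share a base.
Map1a, chr2:121289352-121289599, plus strand: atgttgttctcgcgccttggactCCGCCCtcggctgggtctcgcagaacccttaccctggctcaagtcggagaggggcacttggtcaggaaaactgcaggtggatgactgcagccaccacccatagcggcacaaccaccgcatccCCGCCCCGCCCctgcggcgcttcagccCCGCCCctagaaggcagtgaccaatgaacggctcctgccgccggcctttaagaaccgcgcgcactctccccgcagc
Map1b, chr13:99516603-99516852, minus strand: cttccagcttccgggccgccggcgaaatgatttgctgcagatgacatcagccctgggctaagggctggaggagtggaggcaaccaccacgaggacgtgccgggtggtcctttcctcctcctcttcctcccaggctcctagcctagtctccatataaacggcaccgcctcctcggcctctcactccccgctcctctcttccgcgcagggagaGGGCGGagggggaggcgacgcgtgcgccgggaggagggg
Tubb3, chr8:123411303-123411423, plus strand: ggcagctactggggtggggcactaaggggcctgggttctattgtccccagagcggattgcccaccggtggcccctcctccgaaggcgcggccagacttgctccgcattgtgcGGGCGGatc

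In these stretches the GC box matched 4 times in *Map1a*, 1 time in *Map1b* and 1 time in *Tubb3*, whose full window of 250 bases holds 2 matches. Of all 32851 promoter windows 32.7% hold at least 1 match in 250 bases, and 12.9% in the first 121 bases, the length shown for *Tubb3*. The p53 half-site, sought by its consensus on both strands, matched 1 time in *Tubb3* and 0 times in the other 2 stretches, beside 3.62% of all windows over 121 bases and 7.13% over 250. The TATA box, TATAAA, matched 1 time in *Map1b* and 0 times in the other 2 (12.4% of all windows over 250 bases). A match is a description of the letters and not a site shown to be used. Over the full 250 bases the GC content was 66.0% for *Map1a*, 66.4% for *Map1b* and 68.0% for *Tubb3*, where the median of all windows was 52.4%. The windows not shown had 81.2% and 5 GC boxes for *Map2*, and 74.0% with 3 and 43.6% with 0 for the 2 windows of *Map4*.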

How the data were processed

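RNA of 4 sarcomas was sequenced, and sample titles gave the groups, leaving 0 value columns unmapped. Per the methods and processing notes, the authors trimmed reads with cutadapt 1.9.1, aligned them to GRCm38 with HISAT2 2.0.1 and obtained gene counts with HTSeq. The authors deposited raw read counts and FPKM in 1 table, and FPKM recomputed from count, exonic length and total count equalled the deposited FPKM within 0.0051 for 100% of the genes. Strand setting and treatment of reads with several alignments are not given in the sources used here, and the labels and the methods name different RNA and library kits. No symbol was given for 2639 genes (0.171% of a library's counts or less). Only 1472 of 52073 shared genes have the GENCODE M21 position in the table, so identifiers were looked up in GENCODE M21 for all positions given.

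Counts were fitted in edgeR 4.0.16 (R 4.3.3; filterByExpr, TMM factors 1.01, 0.822, 1.09 and 1.11 for ATO 1, ATO 2, PBS 1 and PBS 2, quasi-likelihood F-test, Benjamini-Hochberg adjustment). The biological coefficient of variation was 62.5%. Nothing says which sarcomas share a litter or day, so p-values measure the spread between these 4 samples. Standard errors are the fold change divided by the root of F. Alternatives were DESeq2 1.42.0, its size factors, 2 other filters, a fit without mitochondrial genes, a replicate block, limma 3.58.1 on log2 FPKM and each sarcoma left out. The scripts were first tested on simulated counts. At a spread near that of these samples edgeR had little power for large changes and DESeq2 made false calls beside true ones, so neither number of calls is taken as the number of genes that differ.

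The 9 genes and the lists were chosen with earlier results of these data known. Named from each pathway list were the 2 genes with the highest mean FPKM and the 2 with the largest fold change among those with a mean FPKM of at least 1, and from each marker list the most abundant gene. The other named markers, *Tubb1*, *Map1s*, *Tubb4b* and *Ppip5k1* were named after their values were seen. The Schwann cell list was shortened to 8 genes after the values were seen.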

Additional observations from a re-analysis of the deposited data

How the results depend on the processing

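The number of genes past an adjusted p of 0.05 was 0 in edgeR, also when size factors came from DESeq2, genes under a mean FPKM of 1 or mitochondrial genes were dropped, and in limma on log2(FPKM + 1) or log2(FPKM + 0.1). It was 754 of 30859 (2.44%) in DESeq2 and 541 of 30859 (1.75%) in unfiltered edgeR, which shared 509 genes. Of 135 genes in the pathway lists these settings called 4 (2.96%) and 2 (1.48%). The cause was not tested. Leaving out each sarcoma gave 0 calls, with the lone sarcoma of a group assumed to vary like the others. The labels number sarcomas 1 and 2 in each group without saying that equal numbers pair them. The deviations of same-numbered sarcomas had a correlation of -0.021, and with the replicate block 0 genes and 0 pathway genes passed, 2 of the 9 genes were higher in ATO, and their median log2 fold change was -1.57.

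Of the 9 genes, 2 were higher in ATO in every setting except limma on log2(FPKM + 0.1), where 1 was, because *Map4* was at -0.0057. *Map4* was also reversed without ATO 1, at -0.55 (1.06 without ATO 2), and *Map6* was reversed there, at 0.46 (-1.41 without ATO 2). With sarcomas left out in turn, the median of the 9 genes lay between -1.45 and -0.61, and the number below both PBS sarcomas on both scales, a check chosen after seeing the data, was 4 to 6, a count that leaving out a sarcoma cannot lower and that shows no stability. *Mapt* kept a positive value in all settings, from 2.12 in limma on log2(FPKM + 1) to 5.47 without PBS 2. Its groups did not overlap, so leaving out a sarcoma could not reverse this sign, which shows no stability. The difference in the *Tubb3* share was -0.96 percentage points and lay between -2.26 and 0.35 with sarcomas left out, reversed without PBS 2. With sarcomas left out the difference in the *Mapt* share ranged from 9.44 to 23.5 (9.16 on counts). That in *Tubb2b* ranged from -2.98 to -2.12 and that in *Tubb4b* from 14.0 to 22.6. The groups did not overlap for the *Mapt*, *Tubb2b* and *Tubb4b* shares, so leaving out a sarcoma could not reverse these differences. The low counts of *Mapt* in PBS and of *Map2* in ATO limit the precision of their fold changes.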

Other observations

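*Tubb1*, the beta-tubulin of platelets and megakaryocytes, varied widely between sarcomas of the same group, with an FPKM of 20.59 in ATO 1, 0.51 in ATO 2, 0.08 in PBS 1 and 70.72 in PBS 2. It supplied 13.4% of the beta-tubulin FPKM in PBS 2 and 8.58% in ATO 1, 1 sarcoma of each group. Its fitted log2 fold change was -1.60 (SE 2.56).

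*Gap43*, which encodes a growth cone protein of growing axons, was at 0.25 and 0.34 FPKM in ATO 1 and ATO 2 and at 13.05 and 11.47 in PBS 1 and PBS 2, close to the pattern of *Tubb2b*. The neurofilament gene *Nefm* was at 12.79 in PBS 2 and at most 0.1 in the others, and *Chga*, a protein of secretory granules, at 21.34 in PBS 2 and at most 0.86 elsewhere. *Gap43*, *Nefm* and *Chga* were singled out after their values were seen.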
